A study of Mus musculus with 8 samples.

Results

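The 10 genes described here encode transcription factors of the secretory lineages of the intestinal epithelium, and were taken by gene symbol from a table of 45777 genes. Of these, 3 genes act early in several secretory lineages (Atoh1, Gfi1 and Sox4), 3 in goblet cells (Spdef, Creb3l1 and Creb3l4) and 3 in enteroendocrine cells (Neurog3, Neurod1 and Insm1), and Pou2f3 acts in tuft cells. RNA was sequenced from mouse colonic organoids, epithelial cultures grown from crypts in Matrigel, in a study of IL-22, Paneth cell metaplasia and the secreted lectin REG3A. KO organoids (4 libraries, replicates 5 to 8) came from Reg3aΔIEC mice, in which Cre recombinase driven by the Villin promoter removes exons 2 to 4 of the floxed Reg3a gene throughout the intestinal epithelium. WT organoids (4 libraries, replicates 13 to 16) came from Reg3a fl/fl mice, which carry the floxed alleles without the deletion. The mice of both genotypes were male and 9 weeks old, and the strain named is C57BL/6J. Both kinds of organoid were collected 3 days after passage, at no more than 15 passages, with no added treatment. The labels contradict each other on replication, giving 1 mouse per genotype in 4 wells in one statement and 3 mice per genotype in another, so a p-value here reflects only how far the libraries spread, and that spread may be technical. Genotype and mouse or organoid line cannot be told apart.

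In the crypt, a progenitor that receives little Notch signal is released from the repressor Hes1, switches on Atoh1 and enters the secretory path, whereas a progenitor with strong Notch signal becomes absorptive. Below Atoh1 the path branches. Gfi1 and Spdef lead to goblet cells (and to Paneth cells in the small intestine), Neurog3 followed by Neurod1 and Insm1 leads to hormone-producing enteroendocrine cells, and Pou2f3 specifies chemosensory tuft cells. Such cells are a minority of the colonic epithelium, and their factors are often transcribed at low levels or for a short time.

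Hes1 represses genes through the hexamer CACGCG and also binds the N-box CACNAG. The 250 bases before the annotated RefSeq start were available for 7 of the 10 genes, and CACGCG or its reverse complement CGCGTG stood in those of Atoh1, Neurog3, Neurod1 and Sox4, which are shown for that reason, 5′ to 3′ on the strand of the gene, with the hexamer in capitals. The positions, in build GRCm38.p6, are chr6:64728875-64729124 on the plus strand for Atoh1, chr10:62132840-62133089 on the plus strand for Neurog3, chr2:79456637-79456886 on the minus strand for Neurod1 and chr13:28953700-28953949 on the minus strand for Sox4.
Atoh1: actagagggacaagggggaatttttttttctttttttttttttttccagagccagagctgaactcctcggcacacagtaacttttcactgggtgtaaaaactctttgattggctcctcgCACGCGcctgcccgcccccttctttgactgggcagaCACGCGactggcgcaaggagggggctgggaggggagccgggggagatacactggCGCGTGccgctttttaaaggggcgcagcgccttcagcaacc
Neurog3: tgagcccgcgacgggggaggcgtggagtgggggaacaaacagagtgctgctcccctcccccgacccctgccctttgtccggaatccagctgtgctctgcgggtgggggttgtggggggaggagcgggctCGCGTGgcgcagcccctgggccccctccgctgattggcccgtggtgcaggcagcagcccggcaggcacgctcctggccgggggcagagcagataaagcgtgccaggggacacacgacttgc
Neurod1: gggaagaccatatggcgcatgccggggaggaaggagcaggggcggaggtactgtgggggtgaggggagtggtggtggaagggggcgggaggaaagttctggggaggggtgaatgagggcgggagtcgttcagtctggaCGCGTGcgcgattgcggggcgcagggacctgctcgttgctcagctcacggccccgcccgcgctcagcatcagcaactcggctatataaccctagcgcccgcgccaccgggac
Sox4: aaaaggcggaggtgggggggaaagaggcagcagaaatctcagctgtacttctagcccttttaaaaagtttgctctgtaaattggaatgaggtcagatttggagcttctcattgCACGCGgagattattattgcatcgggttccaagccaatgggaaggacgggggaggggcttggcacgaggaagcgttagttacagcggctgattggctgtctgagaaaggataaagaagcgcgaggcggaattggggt
Atoh1 had 3 copies, 131, 95 and 41 bases before the start, and the other genes shown had 1 each, at 121 bases in Neurog3, 112 in Neurod1 and 137 in Sox4. The same windows of 32851 RefSeq promoters held the hexamer, on either strand, in 7.62%. The windows of Neurog3 and Neurod1 consisted of G and C to 71.2% and 67.6%, and those of Atoh1 and Sox4 to 55.6% and 50.8%. The E-box CAGCTG, a hexamer bound by bHLH factors, was found once each in Neurog3 and Sox4 and in 13.0% of promoters. The windows of Spdef, Creb3l4 and Gfi1 did not contain CACGCG on either strand. Those of Spdef and Creb3l4 lie within the annotated spans of these genes, so the bases before their outermost ends were not searched. The N-box CACNAG, searched on both strands, was found in 36.7% of promoters, 2 times before 1 of the 3 annotated starts of Creb3l4 and once in Sox4, and not in the windows of Atoh1, Neurog3, Neurod1, Spdef or Gfi1. A match is a stretch of letters and not a measured binding site.

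Library totals ran from 37182098 to 49256171 counts. The targeted gene Reg3a had 0 counts in all 8 libraries and so could not check the labels. Epithelial markers (Epcam, Cdh1, Krt8, Krt18, Vil1 and Cldn7) summed to 8302 to 8715 CPM (counts scaled by library size) in KO and 8141 to 8603 CPM in WT, against 0.612 to 2.04 CPM in KO and 0.851 to 0.945 CPM in WT for 16 non-epithelial markers. In KO replicate 6 the non-epithelial sum was the highest of all, at 2.04 CPM. Mitochondrially encoded protein genes took 1.30 to 1.62% of counts in KO and 0.923 to 1.13% in WT.

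Of the 10 factors, the 8 with enough counts to test had lower estimates in KO than in WT, and for Sox4, Spdef, Creb3l4 and Insm1 the difference passed the test. Those 4 of the 8 tested genes were lower and 0 were higher (quasi-likelihood test of edgeR, with p adjusted by Benjamini-Hochberg over 14945 genes and a threshold of 0.05), against 8.26% of all tested genes lower and 7.63% higher. The same 4 genes had every KO library below every WT library, which held for 10.3% of all tested genes. The median log2 fold change of the 8 was -0.63, beside -0.0012 for all tested genes, of which 50.4% had an estimate below 0. Insm1, Neurod1 and Neurog3 entered the test mainly or partly through the WT libraries, where they were higher, so the count of 4 and the median are descriptions. With a filter of at least 1 CPM in 4 libraries, which removed these 3, 3 of the 5 remaining factors were lower. Spdef, among these lower factors, met that filter mainly through WT (1.30 to 1.61 CPM, against 0.796 to 1.01 CPM in KO). This count is therefore a description as well. Gfi1 and Pou2f3 had too few counts to test. In bulk RNA, fewer cells of a type and less RNA per cell cannot be told apart. The number of lower genes lay between 1 and 4 when 1 library was left out, with 1 (Insm1) without WT replicate 13 and 2 without KO replicate 8.

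Per transcript length, levels fell into tiers. Sox4 stood far above the rest with a mean of 68.2 TPM (the length-scaled values given by the authors) in KO and 80.4 TPM in WT. Creb3l1 followed with 5.96 TPM in KO and 7.46 TPM in WT, and Creb3l4 with 5.40 TPM in KO and 6.98 TPM in WT, and the ranges of these neighbours overlapped in both genotypes. Atoh1 averaged 1.47 TPM in KO and 2.15 TPM in WT, and Spdef 0.859 TPM in KO and 1.61 TPM in WT. Their ranges overlapped in KO, at 0.933 to 1.85 TPM for Atoh1 and 0.671 to 1.13 TPM for Spdef. KO replicates 5 and 6 had low Spdef TPM relative to their CPM. In WT the ranges of Atoh1 and Spdef were apart by less than 0.01 TPM, the lowest Atoh1 value being 1.746 TPM and the highest Spdef value 1.743 TPM. The enteroendocrine factors lay below these, with Neurog3 at 0.186 TPM in KO and 0.479 TPM in WT, Insm1 at 0.104 TPM in KO and 0.362 TPM in WT, and Neurod1 at 0.100 TPM in KO and 0.181 TPM in WT. Neighbours among these 3 were not separated beyond their spread in either genotype. Gfi1 averaged 0.0223 TPM in KO and 0.0517 TPM in WT and was listed at 0 in 4 of 8 libraries, and Pou2f3 was listed at 0 in all 8.

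**Figure D1:**
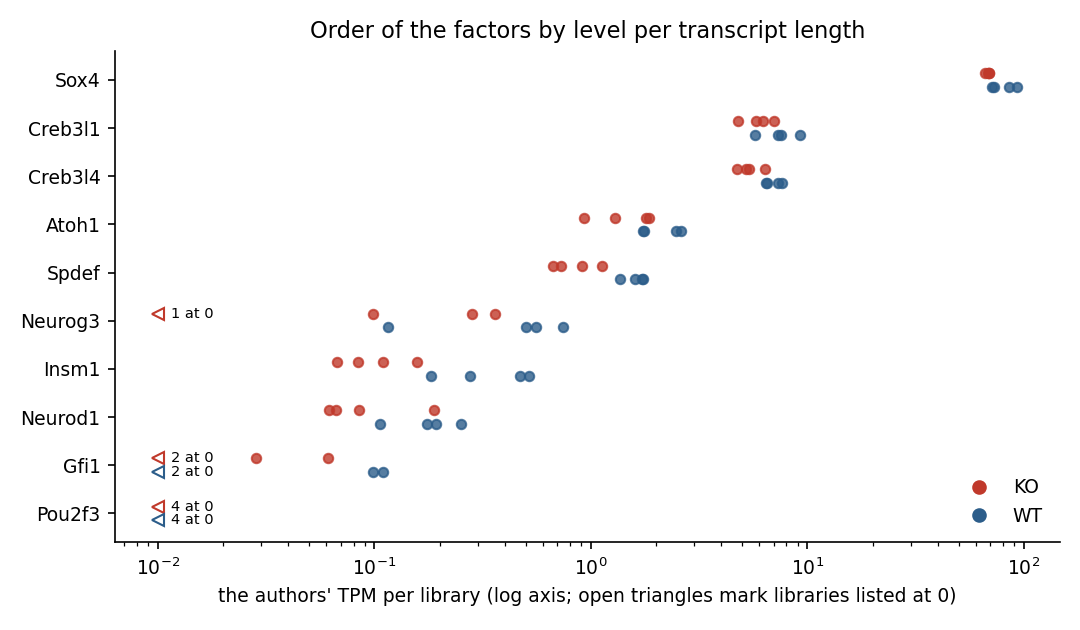
TPM of each factor in each library on a log axis, ordered by the mean over all 8 libraries, with KO points above WT points in each row. Open triangles give the number of libraries listed at 0, which is 4 for Gfi1 and 8 for Pou2f3.

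A count of 0 allows up to 3 counts, which is 0.0606 to 0.0810 CPM in these libraries and covers counting error only. Gfi1 was at or under 3 counts in 5 of 8 libraries, Pou2f3 in all 8 and Neurog3 in KO replicate 6 alone. The limit is 6 counts should the 2 mates of a pair have been counted separately, and Neurod1, Neurog3 and Insm1 then also reach it in some libraries. For Insm1, Neurod1 and Neurog3 the low-count filter, a CPM above 0.214 in at least 4 libraries, was met more often in WT: Insm1 was over that value in 1 KO and 4 WT libraries, Neurod1 in 1 KO and 3 WT, and Neurog3 in 2 KO and 3 WT. Of the 2245 tested genes with a mean under 1 CPM, 1.51% were lower and 2.81% higher.

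Among the pan-secretory factors Sox4 was lower in KO, and Atoh1 had a lower estimate that did not pass the test. Sox4, an HMG-box factor that in mouse intestine promotes secretory differentiation and is also expressed in crypt progenitors, lies on chromosome 13 (28948919 to 28953699, GRCm38, minus strand) and consists of a single exon. It had 164, 168, 156 and 164 CPM in KO replicates 5 to 8, against 208, 180, 221 and 176 CPM in WT replicates 13 to 16. All KO values were below all WT values, and the KO libraries lay closer together (SD 5.16 CPM in KO against 21.9 CPM in WT, n = 4). The log2 fold change was -0.27 with an SE of 0.07 (edgeR adjusted p = 0.0135), the smallest in size of the tested factors. Leaving out KO replicate 7 or WT replicate 13 gave an edgeR adjusted p of 0.0513 and 0.0509. The annotated lincRNA Gm26735 overlaps Sox4 on the opposite strand. The libraries were stranded, but no source used here says whether reads were counted by strand. The Sox4 counts may therefore include reads of Gm26735.

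Atoh1, the bHLH factor that commits progenitors to the secretory path, lies on chromosome 6 (64729125 to 64731245, plus strand) in a single exon. It had 1.40, 1.94, 1.96 and 0.990 CPM in KO replicates 5 to 8, against 2.85, 1.92, 2.64 and 1.94 CPM in WT replicates 13 to 16. KO replicates 6 and 7 were level with WT replicates 14 and 16, so the genotypes overlapped. The log2 fold change was -0.57 ± 0.22 with a 95% interval of -1.04 to -0.10 (edgeR adjusted p = 0.0981), and no alternative setting that was run brought the adjusted p below 0.0720. These rest on 46 to 124 counts per library.

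Gfi1, a zinc-finger repressor downstream of Atoh1, lies on chromosome 5 (107716655 to 107725805, minus strand). It had 0, 2, 0 and 4 counts in KO replicates 5 to 8, against 0, 8, 7 and 0 counts in WT replicates 13 to 16. The pooled level was 0.0325 CPM in KO (95% Poisson interval 0.0119 to 0.0708) and 0.0855 CPM in WT (0.0478 to 0.141). These intervals overlap, would be wider if mates were counted separately, and leave a difference not detectable at this depth. Without the low-count filter the log2 fold change was -1.24 with an SE of 1.37 (edgeR adjusted p = 0.644). The noncoding A430072P03Rik overlaps Gfi1 on the opposite strand.

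**Figure D2:**
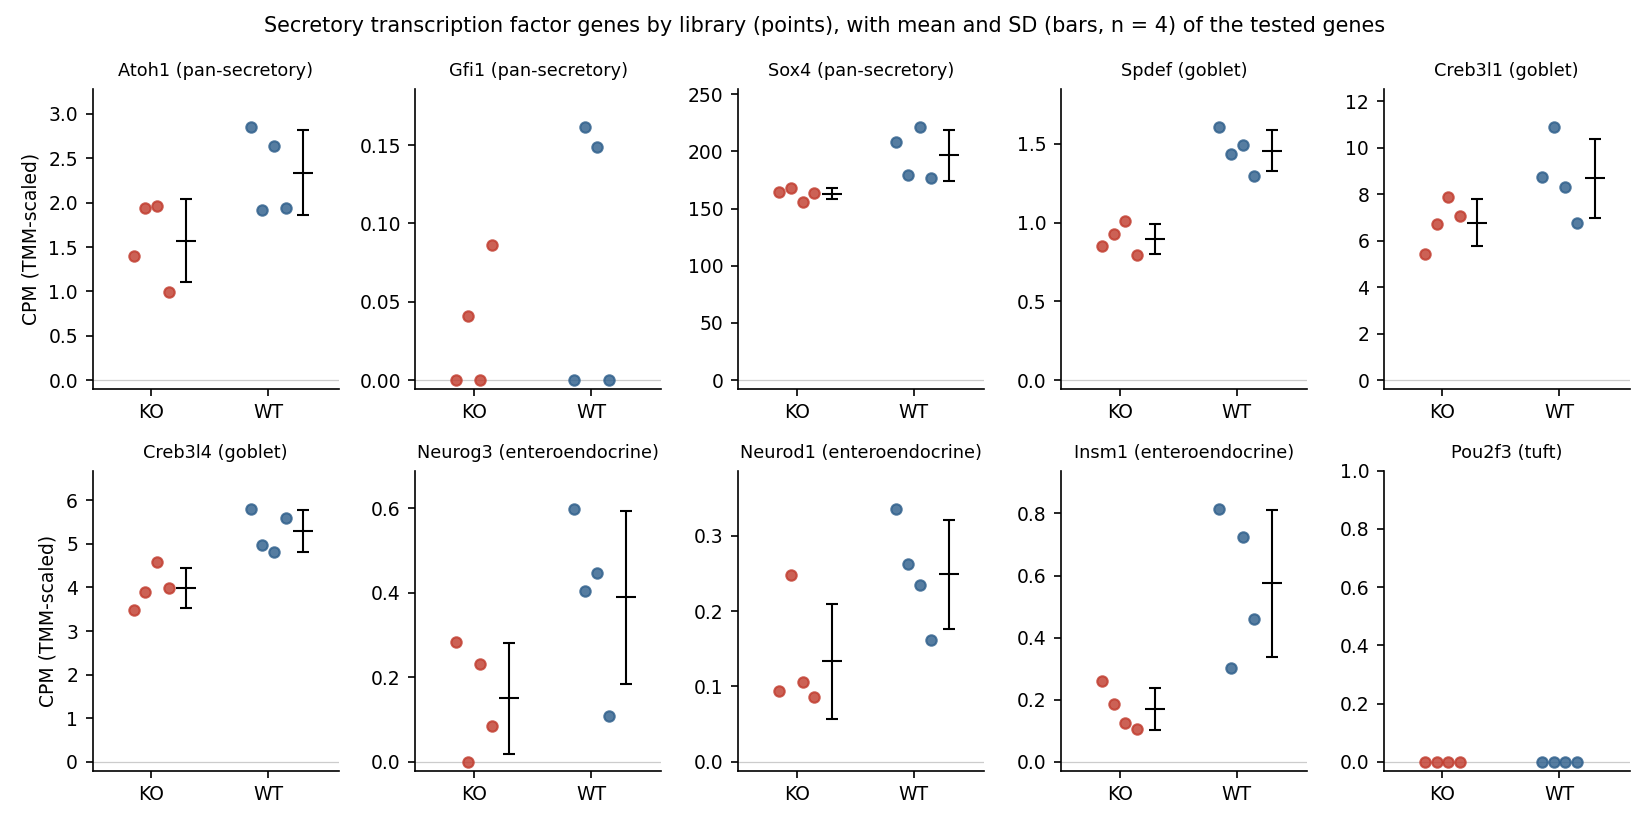
CPM of the 10 factors in each library, KO left of WT, with the vertical axis starting at 0 in each panel and bars for the mean and SD of the tested genes (n = 4). The KO points lie wholly below the WT points for Sox4, Spdef, Creb3l4 and Insm1.

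In the goblet class, Spdef and Creb3l4 were lower in KO, and Creb3l1 was not past the threshold. Spdef, an ETS-family factor required for goblet cell maturation in mice, lies on chromosome 17 (27714446 to 27731003, minus strand). It had 0.851, 0.928, 1.01 and 0.796 CPM in KO replicates 5 to 8, against 1.61, 1.43, 1.49 and 1.30 CPM in WT replicates 13 to 16. The genotypes did not overlap, and the gap between the highest KO and the lowest WT library exceeded the range within KO. Spdef averaged 0.897 ± 0.0941 CPM in KO against 1.46 ± 0.129 CPM in WT (SD, n = 4), a fold change of -0.70 on the log2 scale with an SE of 0.17 (edgeR adjusted p = 0.0153) from 36 to 71 counts per library. Leaving out KO replicate 8 or WT replicate 13 gave an edgeR adjusted p of 0.0569 and 0.0505.

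Creb3l4, a membrane-bound bZIP factor of the endoplasmic reticulum, lies on chromosome 3 (90237498 to 90244582, minus strand). It had 3.48, 3.90, 4.58 and 3.98 CPM in KO replicates 5 to 8, against 5.80, 4.97, 4.81 and 5.59 CPM in WT replicates 13 to 16. The genotypes did not overlap, with KO replicate 7 closest to the WT libraries. Its log2 fold change was -0.41 with an SE of 0.11 (edgeR adjusted p = 0.0251). The call was lost without KO replicate 5, 6 or 8 (edgeR adjusted p of 0.0793, 0.0572 and 0.0671) or without WT replicate 13 or 16 (0.0805 and 0.0582).

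Creb3l1, also known as OASIS and required for terminal maturation of goblet cells in the mouse large intestine, lies on chromosome 2 (91982328 to 92024170, minus strand). It had 5.44, 6.70, 7.89 and 7.06 CPM in KO replicates 5 to 8, against 8.75, 10.9, 8.30 and 6.77 CPM in WT replicates 13 to 16. WT replicate 16 lay within the KO range and the other WT libraries above it. The log2 fold change was -0.36 with an SE of 0.14 (edgeR adjusted p = 0.0983), and without WT replicate 16 it was -0.46 with an edgeR adjusted p of 0.0343. Within a library, the log2 ratio of Spdef to Creb3l4 counts was -2.32 to -2.03 in KO and -2.11 to -1.69 in WT, and that of Spdef to Creb3l1 was -3.15 to -2.68 in KO and -2.92 to -2.39 in WT. Both ratios overlapped between genotypes, and the differences were not tested.

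The enteroendocrine factors had the 3 lowest fold change estimates and the fewest counts of the 8 tested factors. Of the 3, Insm1 passed the test, having met the low-count filter in all 4 WT libraries but 1 KO library. Insm1, a zinc-finger factor needed for enteroendocrine differentiation in mice, is a single-exon gene on chromosome 2 (146221997 to 146225020, plus strand). It had 11, 9, 6 and 5 counts in KO replicates 5 to 8, against 34, 15, 34 and 17 counts in WT replicates 13 to 16. As CPM these were 0.260, 0.186, 0.127 and 0.108 in KO and 0.815, 0.303, 0.724 and 0.459 in WT. No KO library reached the lowest WT library, and WT replicates 13 and 15 stood well above the other WT libraries. The log2 fold change was -1.75 with an SE of 0.40 (95% interval -2.62 to -0.88, edgeR adjusted p = 0.00973). The call held in the 14 alternatives that kept Insm1 in the test, with adjusted p from 0.00259 to 0.0427. A filter of at least 1 CPM in 4 libraries, and halving the counts, each removed it from the test.

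Neurog3, the bHLH factor that commits cells to the enteroendocrine path, lies on chromosome 10 (62133090 to 62134763, plus strand). It had 12, 0, 11 and 4 counts in KO replicates 5 to 8, against 25, 20, 21 and 4 counts in WT replicates 13 to 16. WT replicate 16 had as few counts as KO replicate 8, so the genotypes overlapped. The log2 fold change was -1.41 ± 0.63 with a 95% interval of -2.76 to -0.06 (edgeR adjusted p = 0.157). The protein-coding gene Fam241b overlaps it on the opposite strand.

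Neurod1, a bHLH factor downstream of Neurog3, lies on chromosome 2 (79452637 to 79456636, minus strand). It had 4, 12, 5 and 4 counts in KO replicates 5 to 8, against 14, 13, 11 and 6 counts in WT replicates 13 to 16. KO replicate 6 lay among the WT libraries and WT replicate 16 not far above the other KO libraries. The log2 fold change was -0.88 ± 0.44 with a 95% interval of -1.83 to 0.08 (edgeR adjusted p = 0.214). Cerkl on the same strand and the lincRNA Gm26755 on the opposite strand overlap it, so its counts are uncertain.

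**Figure D3:**
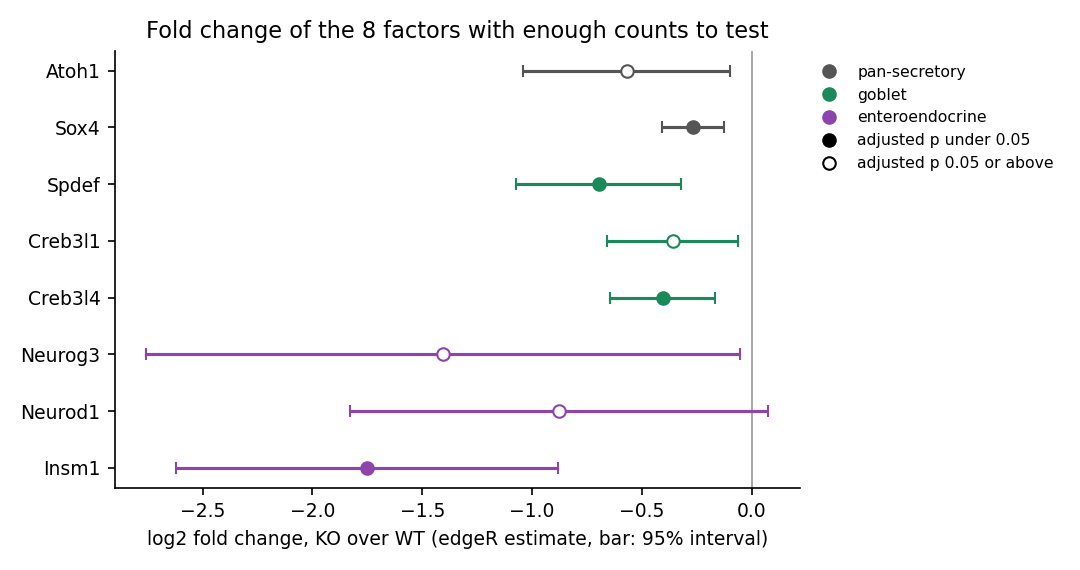
Log2 fold change of KO over WT for the 8 tested factors, with 95% intervals, coloured by class, where filled points have an adjusted p under 0.05. The intervals of the enteroendocrine factors are the widest, that of Neurog3 running from -2.76 to -0.06.

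Pou2f3, the master regulator of tuft cells, on chromosome 9 (43123927 to 43205755, minus strand), had 0 counts in every library of both genotypes. Pooled over the 4 libraries of a genotype, 3 counts correspond to 0.0163 CPM in KO and 0.0171 CPM in WT, or 0.0325 CPM in KO and 0.0342 CPM in WT for 6 counts should mates have been counted separately, and a difference was not detectable at this depth. Of 24 tuft effector genes 8 were also at 0 in all libraries: Gnat3, Il25, Alox5ap, Chat, Sh2d6, Ffar3, Sucnr1 and Rgs13. Of the other tuft factors Gfi1b, Spib and Hmx3 were not tested for want of counts, Spib having 8 counts over all libraries. Hmx2, the 1 tested, averaged 0.299 CPM in KO against 0.330 CPM in WT (edgeR adjusted p = 0.865). Of the 10 tuft effectors tested, 1 was lower and 0 higher, against 8.26% and 7.63% of all tested genes. The median of the 10 was -0.06. The lower one was Avil, the actin-binding protein advillin, at 0.412 ± 0.138 CPM in KO against 0.779 ± 0.136 CPM in WT (SD, n = 4, log2 fold change -0.91, edgeR adjusted p = 0.0441). That call was lost without KO replicate 5, 7 or 8 (edgeR adjusted p of 0.0779, 0.134 and 0.137), without WT replicate 13, 15 or 16 (0.130, 0.0651 and 0.0866), and without the low-count filter (0.0604).

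The libraries of a genotype differed in which stood highest. WT replicate 13 was the highest WT library for 6 of the 8 tested factors (Atoh1, Creb3l4, Insm1, Neurod1, Neurog3 and Spdef), and WT replicate 16 the lowest for 5 (Creb3l1, Neurod1, Neurog3, Sox4 and Spdef). KO replicate 7 was the highest KO library for 4 and KO replicate 8 the lowest KO library for 4.

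**Figure D4:**
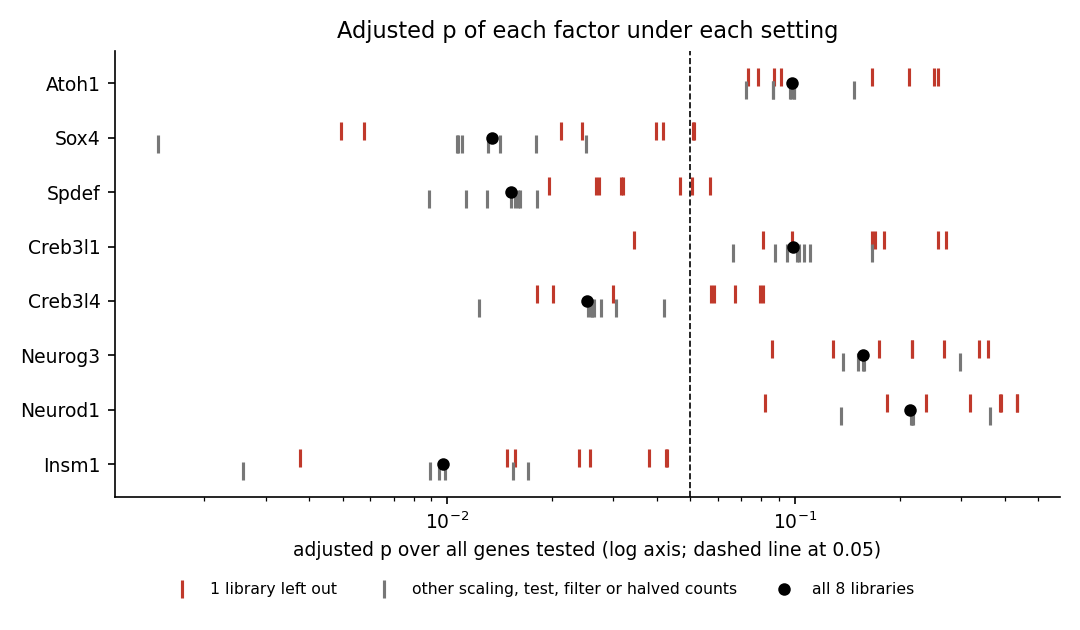
Adjusted p of the 8 tested factors on a log axis, with all 8 libraries (black points), with 1 library left out (red ticks) and under the other settings (grey ticks). All ticks of Insm1 lie left of the dashed line at 0.05, and ticks of Sox4, Spdef and Creb3l4 lie on both sides of it.

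Other genes of the same pathways were examined as lists. Of all tested genes 8.26% were lower in KO and 7.63% higher. Of 12 further pan-secretory and goblet factors, all tested, 4 were lower in KO and 0 higher, and their median on the log2 scale was -0.15. Foxa2, a forkhead factor of goblet and enteroendocrine cells, averaged 14.3 ± 1.57 CPM in KO against 18.5 ± 0.724 CPM in WT (log2 fold change -0.37, edgeR adjusted p = 0.00513). Xbp1, the unfolded protein response factor of secretory cells, averaged 182 CPM in KO against 210 CPM in WT (-0.20, edgeR adjusted p = 0.00954), and the ETS factor Elf3 averaged 654 CPM in KO against 775 CPM in WT (-0.24, edgeR adjusted p = 0.00818). Foxa3, a forkhead factor, was lower (-0.30, edgeR adjusted p = 0.0148), with an edgeR adjusted p of 0.0555, 0.0559 and 0.0526 without KO replicate 5, 7 or 8 and 0.0559 without WT replicate 13. Klf4 had a higher estimate that did not pass the test (0.09, edgeR adjusted p = 0.212), with every KO library above every WT library. Foxa1, Sox9 and Cbfa2t2 also had higher estimates that did not pass (0.06, 0.03 and 0.06). Bhlha15, Hes6, Ets2 and Cbfa2t3 had lower estimates that did not pass. Of 28 goblet effector genes 27 were tested, 9 were lower and 2 higher, and the median was -0.43. Trefoil factor Tff3 averaged 16.9 ± 2.47 CPM in KO against 31.1 ± 3.63 CPM in WT (-0.88, edgeR adjusted p = 8.95e-05), the disulfide isomerase Agr2 42.7 CPM in KO against 63.8 CPM in WT (-0.58), and the tetraspanin Tspan13 20.1 CPM in KO against 26.7 CPM in WT (-0.41). The mucin glycosyltransferase Gcnt3 was higher, at 43.7 CPM in KO against 27.5 CPM in WT (0.67, edgeR adjusted p = 9.5e-06). Guca2a was the other higher gene (0.71, edgeR adjusted p = 0.00129). Muc2, Clca1 and Zg16 had lower estimates that did not pass the test (-0.29, -0.80 and -0.66, edgeR adjusted p = 0.115, 0.105 and 0.0699). Galnt12, B3gnt6 and C1galt1c1 had higher estimates that did not pass. Retnlb, the untested gene, had 0 counts in all libraries.

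Most of the other enteroendocrine factors were near the limit of counting, like Neurog3 and Neurod1, and like Insm1 in KO. Of 14, only Rfx3 and Mnx1 passed the filter, and neither passed the test (log2 fold change -0.21 and 0.43, edgeR adjusted p = 0.316 and 0.473). The other 12 had too few counts to test, with means of at most 0.163 CPM in KO and at most 0.467 CPM in WT. The mean was lower in KO for 11 of the 12, in some by little (Nkx2-2 averaged 0.128 CPM in KO against 0.140 CPM in WT, Prox1 0.163 CPM in KO against 0.193 CPM in WT). In 1 of the 11 the difference rested on 1 count over all libraries. Scrt1 had 0 counts in both genotypes. In 1 of the 12, Isl1, every KO library lay below every WT library (0.0586 CPM in KO against 0.467 CPM in WT). Of all tested genes 50.4% had an estimate below 0, and 10.3% had every KO library below every WT library. The shares among genes too low to test were not taken. Nkx2-2, Prox1, Scrt1 and Isl1 were named after their values were seen. Of 22 enteroendocrine effectors 13 were tested, with a median of -0.51. Of the 13, 3 were lower and 1 higher, against 8.26% and 7.63% of all tested genes. Gcg, the proglucagon gene of L cells, averaged 0.619 ± 0.256 CPM in KO against 2.19 ± 0.633 CPM in WT (-1.81, edgeR adjusted p = 0.000833), and Pyy, the peptide YY gene, 6.35 ± 1.82 CPM in KO against 11.6 ± 2.55 CPM in WT (-0.87, edgeR adjusted p = 0.00557). Insl5, an L-cell hormone gene, averaged 0.502 CPM in KO against 1.61 CPM in WT (-1.66, edgeR adjusted p = 0.0484), a call lost in 8 of 16 alternatives, with a DESeq2 adjusted p of 0.264, an edgeR adjusted p of 0.0855 without the low-count filter, and 0.0532, 0.147, 0.139, 0.0835, 0.0536 and 0.0530 on leaving out KO replicate 7, KO replicate 8 and WT replicates 13 to 16 in turn. The carboxypeptidase gene Cpe was higher (0.33, edgeR adjusted p = 0.0244), with 0.0547 and 0.0909 without KO replicate 5 or 8 and 0.0809 without WT replicate 13. Chga, Chgb and Scg2 had lower estimates that did not pass the test (-0.51, -0.24 and -0.71, edgeR adjusted p = 0.124, 0.251 and 0.0791). Tac1 and Pcsk1 had higher estimates that did not pass (0.16 and 0.10, edgeR adjusted p = 0.610 and 0.837).

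**Figure D5:**
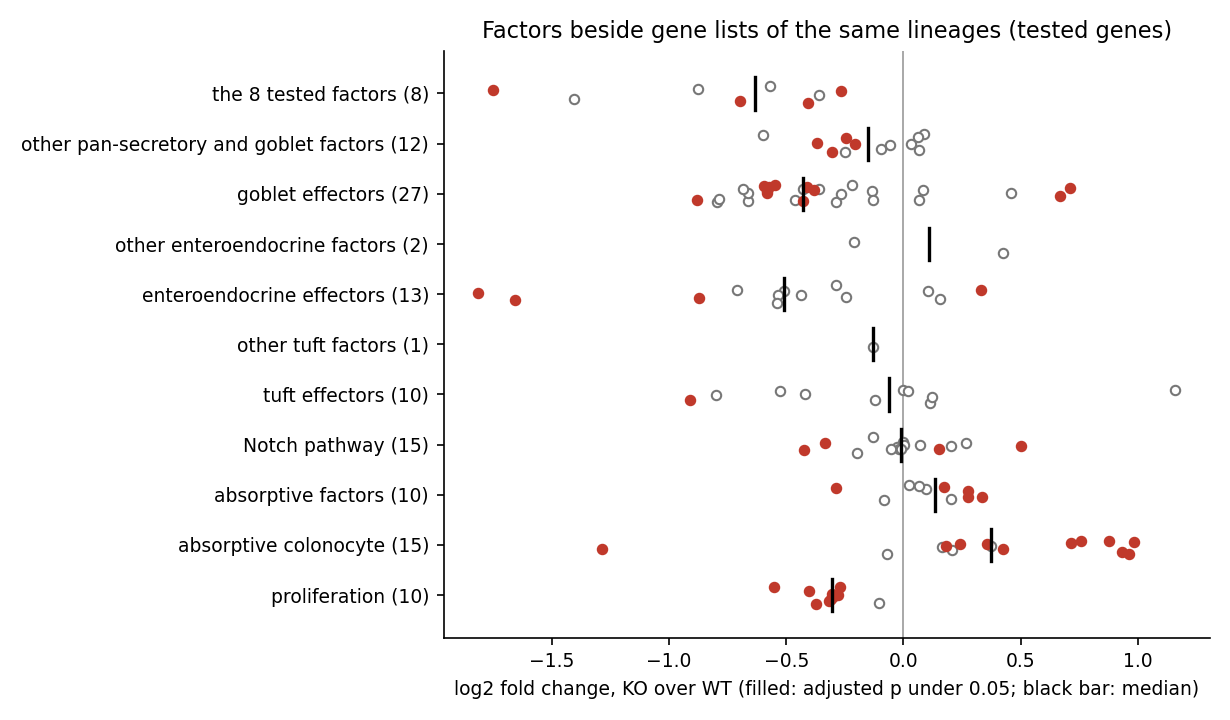
Log2 fold change of KO over WT for the tested factors and for the tested genes of related lists, with the number tested in brackets, filled points for an adjusted p under 0.05 and a bar at the median. The medians of the factors, goblet effectors and enteroendocrine effectors are -0.63, -0.43 and -0.51, and that of the absorptive colonocyte list is 0.37.

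Upstream of the factors, 15 of 19 Notch pathway genes were tested, with a median of -0.01. Of these 2 were higher and 2 lower, against 7.63% and 8.26% of all tested genes. The ligand gene Jag1 was higher, at 43.5 ± 2.69 CPM in KO against 30.8 ± 1.24 CPM in WT (0.50, edgeR adjusted p = 6.53e-05). The repressor gene Hes1 averaged 97.1 ± 4.23 CPM in KO against 87.6 ± 2.55 CPM in WT (0.15, edgeR adjusted p = 0.0378), with an edgeR adjusted p of 0.0557, 0.107 and 0.124 without KO replicate 5, 6 or 8 and 0.0658 and 0.0578 without WT replicate 13 or 15. The ligand gene Dll4 was lower (-0.43, edgeR adjusted p = 0.0393), with 0.109, 0.0507 and 0.120 without KO replicate 5, 6 or 7, 0.101 and 0.0821 without WT replicate 13 or 15, and 0.0655 without the low-count filter. Lfng, a glycosyltransferase that modifies Notch, was lower (-0.33, edgeR adjusted p = 0.0330), with 0.0842, 0.0869 and 0.0790 without KO replicate 6, 7 or 8, between 0.0517 and 0.0656 without any 1 WT replicate, and 0.0580 without the filter. Of 10 absorptive factors, all tested, 4 were higher and 1 lower, with a median of 0.13. The homeobox factor gene Cdx2 averaged 182 CPM in KO against 144 CPM in WT (0.33), the vitamin D receptor gene Vdr 181 CPM in KO against 149 CPM in WT (0.28), and the bile acid receptor gene Nr1h4 22.3 CPM in KO against 18.4 CPM in WT (0.28). Prdm1, the gene of the repressor Blimp1, was lower (-0.29, edgeR adjusted p = 0.0242), with 0.0697 and 0.0803 without KO replicate 5 or 7 and 0.0522 without WT replicate 14.

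Markers of other epithelial states moved with genotype beside the factors, and their part in the values of the factors was not tested. Of all tested genes 8.26% were lower in KO and 7.63% higher. Of 15 absorptive colonocyte markers 10 were higher and 1 lower in KO, their sum being 7853 to 8177 CPM in KO and 5551 to 6093 CPM in WT. Of 10 proliferation markers 9 were lower and 0 higher, their sum being 1183 to 1255 CPM in KO and 1413 to 1616 CPM in WT. Of 11 tested crypt stem cell markers 6 were lower and 1 higher, with sums of 2446 to 2555 CPM in KO and 2476 to 2865 CPM in WT. Of 8 tested Paneth and deep crypt secretory markers 3 were lower and 1 higher, with sums of 658 to 731 CPM in KO and 823 to 868 CPM in WT. Most of those sums came from Cd24a (403 CPM in KO, 454 CPM in WT) and Nupr1 (272 CPM in KO, 376 CPM in WT). The third lower gene was Kit (0.425 CPM in KO, 0.920 CPM in WT). The higher one was Pnliprp2, a call lost in 5 of 16 alternatives. Mmp7 and Reg4 did not pass (edgeR adjusted p = 0.211 and 0.152), and Lyz1 had too few counts to test. Of the epithelial markers, Vil1 was higher (0.25, edgeR adjusted p = 0.00209) and 0 were lower, and of the 2 tested non-epithelial markers 0 passed. Goblet effectors summed to 401 to 437 CPM in KO and 446 to 516 CPM in WT, and enteroendocrine effectors to 37.6 to 44.5 CPM in KO and 43.7 to 59.1 CPM in WT.

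For the factors that passed the test and averaged at least 1 CPM, the genes with the most similar profile over the 8 libraries were taken as those with the smallest root mean square difference of centred log2 CPM among 11211 genes. For Sox4 these were Usp53, Tmpo and Ero1l, with differences of 0.0329, 0.0400 and 0.0415, beside a median of 0.191. For Spdef they were Mcf2l, Cnn3 and Agr2 (0.0806, 0.0876 and 0.0889, median 0.370), the last also among the goblet effectors above. For Creb3l4 they were Tmem40, Clspn and Nsl1 (0.0561, 0.0764 and 0.0861, median 0.259). These profiles share the difference between genotypes, and the likeness is a description of these libraries.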

How the data were processed

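RNA of 4 KO and 4 WT colonic organoid cultures was extracted with a column kit and made into stranded mRNA libraries from 1 µg, per the labels' protocols. The authors deposited whole-number counts per gene, not normalized, with FPKM and TPM values beside them, both scaled for transcript length and depth. TopHat2, Bowtie2, TopHat, HTSeq and GRCm38 are named in the submitters' processing notes, without versions or roles. Genes with 2 counts outnumbered genes with 1 count in all 8 libraries, so the mates of a pair may each have been counted. The deposited FPKM were not used, and the deposited TPM served to order levels.

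After the filterByExpr filter and TMM scaling, KO was tested against WT by quasi-likelihood in edgeR 4.0.16 (R 4.3.3), with Benjamini-Hochberg adjustment over all genes tested and a threshold of 0.05. Errors of CPM are the SD of 4 libraries. The SE of a fold change was obtained from the F statistic, and its 95% interval from the moderated degrees of freedom. Alternatives were other scalings, DESeq2 1.42.0, limma-voom (limma 3.58.1), no and stricter low-count filters, leaving out each library, and halved counts, the last chosen after seeing the data. Promoters came from RefSeq. Tables and plots were made with Python 3.11.15, pandas 2.3.3, numpy 2.4.6, scipy 1.17.1 and matplotlib 3.10.9.

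The members and the gene lists were chosen with earlier results of these data known. Pou2af2 and Pou2af3, 2 list entries, were not matched to a symbol. The text names all members and, of each list, the (up to 4) genes past 0.05 that rank first by adjusted p, or, where no gene passed, the 2 with the highest mean CPM. For lists given by their counts, not all such genes are named. Also named after their values were seen were 4 untested enteroendocrine factors and some genes of the enteroendocrine effector and Paneth lists. Genes without a call in the lists of goblet effectors and of further pan-secretory and goblet factors, and Guca2a, were added in the same way.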

Additional observations from a re-analysis of the deposited data

Results flagged for a closer look

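Neurod1 in KO replicate 6 stood apart from the other KO libraries, at 0.248 CPM against 0.105 CPM in the next highest. The gap was 0.880 of the range of the KO libraries, above Dixon's 95% critical value for 4 samples. Of 18 groups of 4 libraries examined in this way 1 was set apart, and chance alone sets apart about 1 in 20. The value rests on 12 counts.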

How the results depend on the processing

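The count of lower factors was 4 under DESeq2 size factors, library totals, upper quartile scaling, the DESeq2 Wald test, limma-voom and no low-count filter, and 3 of 5 tested with the filter of at least 1 CPM in 4 libraries and with halved counts. Leaving out 1 library gave 1 to 4 lower factors. No setting that was run gave a factor higher in KO. Over all genes, leaving out 1 library gave 724 to 1404 lower (1234 with all 8) and 696 to 1386 higher (1140 with all 8), and the lowest counts of both kinds came without KO replicate 8. Of 120 alternative values of single factors with an adjusted p, 110 kept their direction and side of the threshold, 9 lost the call, 1 gained it and 0 changed direction. Of the calls lost, all came from leaving out 1 library. DESeq2 gave no adjusted p for Neurog3 or Neurod1. No paired analysis was possible because the genotypes share no library numbers. Depth limits Gfi1, Pou2f3 and the enteroendocrine factors most, and counting error there is large.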

Other observations

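The TPM of Spdef divided by its CPM differed between libraries. It was 0.788 in KO replicate 5 and 0.783 in KO replicate 6, and 1.05 to 1.16 in the other 6 libraries. The ratio of the highest to the lowest was 1.48, larger than for 97.4% of 14724 genes, whose median was 1.05. KO replicates 5 and 6 therefore stand lower relative to KO replicates 7 and 8 on the TPM scale than on the CPM scale, and the KO mean of Spdef is 0.859 TPM beside 0.897 CPM. The order of levels uses the TPM and the fold change uses the counts.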
